A study of Mus musculus with 32 samples.

Results

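Cells show fragments of their proteins to T cells on molecules of the major histocompatibility complex (MHC), and the genes of that machinery were followed here across 4 mouse models of ovarian carcinoma and the normal tissues around their sites of origin. The members were every row of the gene count table whose symbol begins with H2-, the mouse MHC prefix, together with B2m, Tap1, Tap2, Tapbp, Tapbpl, Psmb8, Psmb9, Psmb10, Ciita, Nlrc5, Cd74, Erap1, Calr and Pdia3. This rule, which uses names and no measured value, gave 59 of 55450 genes. The GENCODE annotation lists 48 of them as protein coding, 4 as polymorphic pseudogenes and 7 as other pseudogenes. On chromosome 17, the site of the mouse MHC, lie 50 of the 59, between 33915899 and 37483552 of GRCm38.

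Total RNA of 32 samples from female mice had been sequenced, 26 from tumours and 6 from normal tissue, in 10 groups. OSE-BPR tumours (FVB strain by label, 3 GEMM and 5 allografts) followed adeno-Cre placed under the ovarian bursa, where it meets the ovarian surface epithelium. Ad-BPR tumours (C57Bl/6 by label, 2 GEMM and 4 allografts) followed adeno-Cre delivered into the oviducts. Both carry floxed Brca1 (Brca1 fl/fl) with floxed Trp53 (Trp53 fl/fl) and the transgene K18GT121 Tg/+, which inhibits Rb. Pax8-BPR tumours (C57Bl/6 by label, 4 GEMM and 2 allografts) have the same alleles plus Pax8-CreERT2 Tg/+, a Cre that tamoxifen activates in secretory cells of the oviduct. Ovgp1-BPR tumours (C57Bl/6 by label, 3 GEMM and 3 allografts) have Brca1 fl/fl, K18GT121 Tg/+ and Ovgp1-CreERT2 Tg/+ with, by the sample labels, the knock-in allele Trp53 KozR172H ki/+, while the series text calls the driver Ovgp1-iCreERT2 and also lists Trp53 fl/fl for them. A GEMM tumour arose in the engineered mouse itself, and an allograft is a tumour grown in another animal. The normal ovaries and oviducts (wild type, C57Bl/6 by label) came from the same 3 animals. All tumours were taken at endpoint, and ages, graft hosts and the source tumour of each graft are not given in the sources used here. Ad-BPR, Pax8-BPR and Ovgp1-BPR together are called oviduct-origin below.

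Class I molecules, found on nearly all nucleated cells, consist of a heavy chain (H2-K1 and H2-D1 are the classical ones, the H2-Q, H2-T and H2-M genes the others) and the light chain B2m. They are filled in the endoplasmic reticulum with peptides cut by the immunoproteasome (Psmb8, Psmb9, Psmb10), pumped in by Tap1 and Tap2, trimmed by Erap1 and loaded with the help of Tapbp, Calr and Pdia3. Class II molecules pair an alpha with a beta chain (H2-Aa with H2-Ab1, and H2-Ea with H2-Eb1), are guarded by the invariant chain Cd74, exchange peptides with the help of H2-DM and H2-DO, and are chiefly made by dendritic cells, macrophages and B cells. Nlrc5 is the transactivator of the class I genes and Ciita that of the class II genes, and interferon-gamma raises both.

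The promoters that these transactivators act through are shown first. Each sequence is the 250 bases before the RefSeq gene start in GRCm38.p6, printed on the gene's own strand. Capitals mark, on either strand, the NF-Y box CCAAT, the IRF core AANNGAAA, the CRE-like motif TGACG and the class I kappa B site GGGGATTCCCC. The 4 class I heavy chains printed are the classical pair and the pair of H2-Q genes whose levels ranged most widely. B2m is the shared light chain, and H2-Aa and H2-Eb1 are class II genes that behaved differently from each other.
H2-K1: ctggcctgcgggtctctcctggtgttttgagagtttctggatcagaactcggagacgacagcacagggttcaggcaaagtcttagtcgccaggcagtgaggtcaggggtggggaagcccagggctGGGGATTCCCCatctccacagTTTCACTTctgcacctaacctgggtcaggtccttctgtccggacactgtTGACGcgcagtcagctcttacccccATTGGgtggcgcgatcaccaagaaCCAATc
H2-D1: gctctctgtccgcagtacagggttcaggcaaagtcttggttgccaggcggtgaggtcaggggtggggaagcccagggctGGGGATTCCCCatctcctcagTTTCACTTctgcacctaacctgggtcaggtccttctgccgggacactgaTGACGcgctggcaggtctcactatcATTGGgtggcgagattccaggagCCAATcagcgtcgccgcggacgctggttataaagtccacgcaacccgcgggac
H2-Q6: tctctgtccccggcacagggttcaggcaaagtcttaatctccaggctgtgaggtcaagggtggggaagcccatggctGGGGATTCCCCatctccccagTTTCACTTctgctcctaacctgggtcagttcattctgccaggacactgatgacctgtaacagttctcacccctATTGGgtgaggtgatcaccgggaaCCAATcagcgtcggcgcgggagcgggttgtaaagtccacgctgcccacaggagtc
H2-Q7: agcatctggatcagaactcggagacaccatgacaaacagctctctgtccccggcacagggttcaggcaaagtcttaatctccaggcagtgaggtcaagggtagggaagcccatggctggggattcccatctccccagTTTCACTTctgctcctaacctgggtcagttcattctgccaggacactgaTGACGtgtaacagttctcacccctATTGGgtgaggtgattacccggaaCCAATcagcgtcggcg
B2m: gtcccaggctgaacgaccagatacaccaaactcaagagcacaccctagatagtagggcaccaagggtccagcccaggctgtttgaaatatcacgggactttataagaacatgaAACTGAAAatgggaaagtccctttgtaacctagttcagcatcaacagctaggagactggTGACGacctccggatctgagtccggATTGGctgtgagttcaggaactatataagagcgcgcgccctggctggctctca
H2-Aa: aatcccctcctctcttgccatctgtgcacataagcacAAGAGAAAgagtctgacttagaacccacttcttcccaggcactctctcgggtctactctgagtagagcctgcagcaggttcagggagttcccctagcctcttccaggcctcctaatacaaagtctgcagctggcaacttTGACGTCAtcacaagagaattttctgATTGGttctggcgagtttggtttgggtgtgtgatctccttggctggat
H2-Eb1: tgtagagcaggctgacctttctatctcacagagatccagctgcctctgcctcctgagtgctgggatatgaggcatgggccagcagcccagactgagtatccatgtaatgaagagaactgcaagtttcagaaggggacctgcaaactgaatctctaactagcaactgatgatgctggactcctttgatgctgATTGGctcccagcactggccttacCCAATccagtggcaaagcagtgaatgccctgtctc

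These windows lie at chr17:34000334-34000583 for H2-K1 (minus strand), chr17:35262844-35263093 for H2-D1, chr17:35424600-35424849 for H2-Q6, chr17:35438905-35439154 for H2-Q7, chr2:122147437-122147686 for B2m, chr17:34287824-34288073 for H2-Aa (minus strand) and chr17:34305617-34305866 for H2-Eb1, the others on the plus strand. RefSeq promoters were matched for 41 of the 59 members. The kappa B site was in 10 of 32851 mouse promoters of this length (0.0304%), and 3 of those were the members H2-K1, H2-D1 and H2-Q6. In these 3 the first bases of the kappa B site and the IRF core were 21 bases apart. From the IRF core to the CRE-like motif the distance was 49 bases in H2-K1, H2-D1 and H2-Q7. The CRE-like motif stood 25 bases before an NF-Y box in H2-K1, H2-D1 and B2m, 24 in H2-Q7 and 26 in H2-Aa. H2-Q6 had no CRE-like motif in its window, and H2-Aa was the only class II chain or accessory gene matched that had one. H2-Eb1 held NF-Y boxes alone among the letters searched. The common motifs are weak marks by themselves: the NF-Y box was in 33.8% of all promoters, the IRF core in 21.3% and the CRE-like motif in 17.8%. A match is a string of letters and was not tested for binding here.

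The libraries held 13.99 M to 20.51 M assigned counts each (median 17.43 M). Levels are CPM, counts scaled to a common library total with TMM factors, and a floor of 3 counts corresponds to 0.14 to 0.219 CPM. Trp53 lay at 8.4 to 43 CPM in the OSE-BPR, Ad-BPR and Pax8-BPR tumours and at 101 to 157 in the Ovgp1-BPR tumours, against 112 to 120 in ovary and 83.4 to 94.6 in oviduct. Brca1 was at 17.1 to 70.6 CPM in tumours, 13.8 to 22.5 in ovary and 2.03 to 5.05 in oviduct, and gene totals do not separate reads of the floxed exons. Summed markers of ovarian cells reached 1211, 99.9 and 714 CPM in oviduct replicates 1 to 3 (9186 to 10297 in ovary), so results of tumours against oviduct are also given without replicates 1 and 3. The comparison of oviduct with ovary is not given without both, so these ovarian markers are a limit on it. Titles give the replicates different animal numbers. Where grafts descend from 1 tumour, the p-values measure the spread between grafts rather than between tumours.

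Before the levels are compared, the strain labels need a check, because the MHC is among the most strain-variable parts of the genome. C57BL/6 mice carry the H2b haplotype, in which a deletion silences H2-Ea, and FVB mice the H2q haplotype. The deposited reads were aligned to a C57BL/6-derived reference, so reads of H2q alleles may be assigned differently, which was not tested. Ratios of neighbouring genes on the length-scaled TPM scale, chosen after the values were seen, separated the tumours by their label without overlap. H2-Eb1 relative to H2-Ab1 was 0.0266 to 0.11 in the 8 tumours labelled FVB and 0.729 to 1.19 in the 18 oviduct-origin tumours. H2-T22 relative to H2-T10 was 0.237 to 0.31 against 5.77 to 48.1, and H2-DMb2 relative to H2-DMb1 was 0.416 to 0.616 against 0.0172 to 0.289.

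The 6 normal libraries, labelled C57Bl/6, stood with the FVB tumours and not with the tumours that share their label. Their H2-Eb1 to H2-Ab1 ratio was 0.0309 to 0.0648, their H2-T22 to H2-T10 ratio 0.214 to 0.34 and their H2-DMb2 to H2-DMb1 ratio 0.419 to 0.853. Counts of H2-Ea-ps, the H2-Ea gene as annotated, were 0 in all 18 oviduct-origin tumours, while 6 of the 8 FVB tumours (58 counts together) and 6 of the 6 normal libraries (106 counts together) had some. Genes outside the set showed the same division in part. There were 18 genes at 2 CPM or more in all 8 FVB tumours and below 0.5 CPM in all 18 oviduct-origin tumours. Of these, 10 were at the high level in all 6 normal libraries, 1 at the low level and 7 at neither. Of 8 genes with the opposite pattern, 0 were high and 5 low in all 6 normal libraries, and 3 were neither. Trim12a, for example, lay at 0 to 0.122 CPM in FVB tumours, 12 to 56.2 in oviduct-origin tumours and 0 to 0.0962 in the normal libraries. In the comparisons of oviduct-origin tumours with normal oviduct, an H2 difference of this kind and the tumour cannot be told apart, and no oviduct library is free of it. The same holds for OSE-BPR against oviduct-origin tumours, whose strain labels differ. The comparisons of the normal tissues with each other and of Ovgp1-BPR with Ad-BPR and Pax8-BPR do not cross this divide as these ratios draw it. OSE-BPR and ovary stand on the same side of these ratios, but their strain labels differ. By label, strain and tumour cannot be told apart in that comparison.

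**Figure D1:**
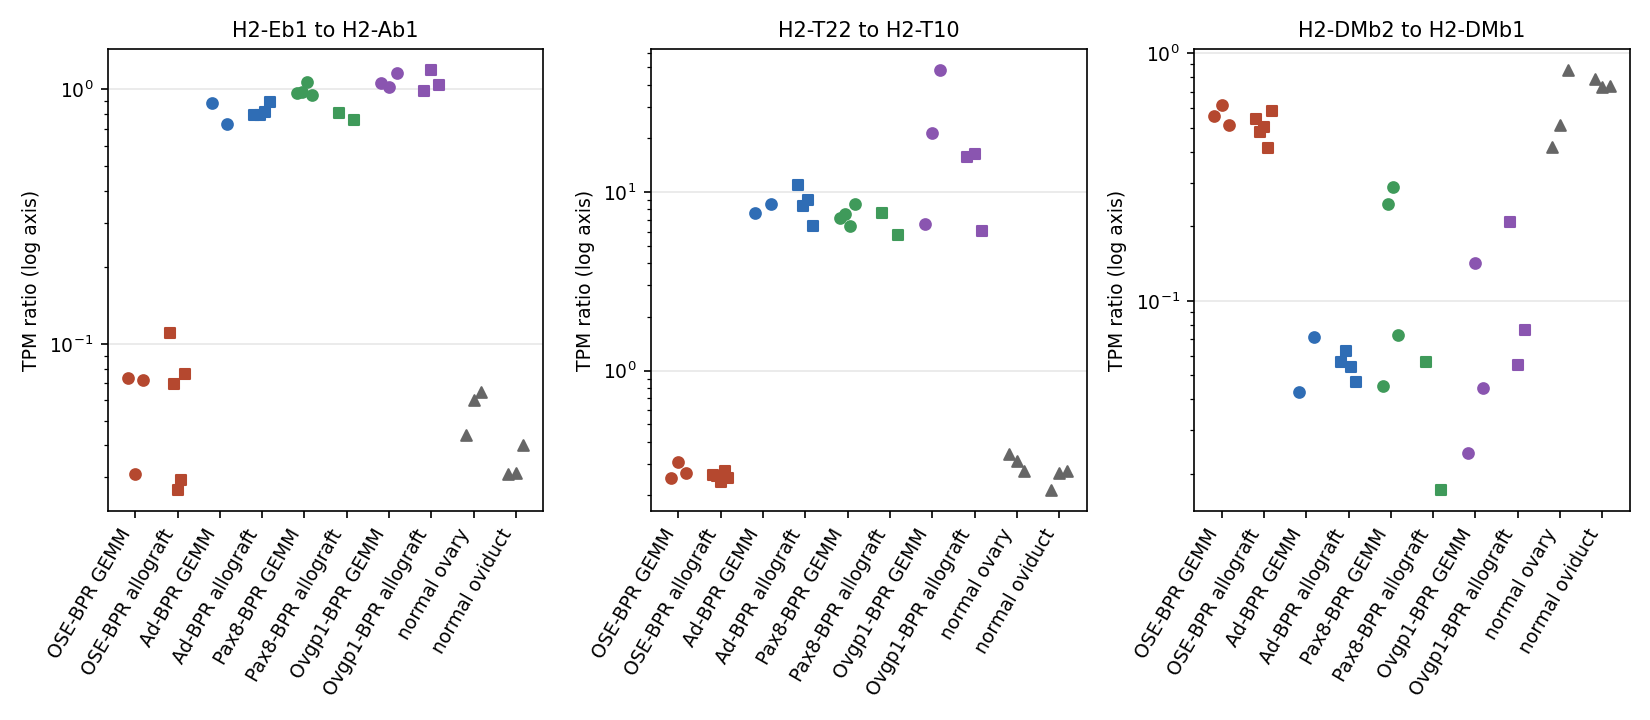
TPM ratios of H2-Eb1 to H2-Ab1, H2-T22 to H2-T10 and H2-DMb2 to H2-DMb1 (log axes) for every library, grouped by model and tissue. The 6 normal libraries lie in or near the range of the OSE-BPR tumours in all 3 panels, and the 18 oviduct-origin tumours lie apart.

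Across the 10 groups, 34 of the 59 members had a mean of at least 10 CPM in some group, 10 reached 1 to 10 CPM and 15 stayed below 1 CPM. The last set holds 6 members without a count in any library (H2-M10.2, H2-M10.3, H2-M10.5, H2-M10.5-ps1, H2-M10.6 and H2-Pa). Per length, H2-K1 and B2m led in Pax8-BPR GEMM tumours, with mean TPM of 4600 and 4030, ahead of H2-D1 at 2280 and Cd74 at 1480. In Ad-BPR GEMM tumours B2m had a mean TPM of 2140 and H2-K1 of 1730, and in Ovgp1-BPR GEMM tumours 1420 and 971. The chaperone Calr led in both normal tissues instead (mean TPM 1120 in ovary and 1170 in oviduct), where H2-K1 stood at 533 and 409 and B2m at 450 and 529. OSE-BPR allografts had the same leader, Calr at a mean TPM of 633, with H2-K1 at 562 and B2m at 496.

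Summed over the 27 class I heavy chain genes, Pax8-BPR GEMM replicates 1 to 4 reached 4862, 2554, 9593 and 14714 CPM, and the Pax8-BPR allografts 4317 and 4411. Ad-BPR GEMM replicates stood at 3268 and 2537 CPM and Ad-BPR allografts at 1420, 3124, 10788 and 3195. Both models therefore lay wholly above the normal tissues, where the sum was 738, 636 and 584 CPM in ovary and 665, 766 and 829 in oviduct. OSE-BPR GEMM tumours stood at 1853, 852 and 749 CPM and OSE-BPR allografts at 501 to 775.5, at the level of normal tissue except for GEMM replicate 1. The Ovgp1-BPR tumours were divided: GEMM replicates 1 to 3 gave 3662, 562 and 364 CPM and the allografts 1724, 1239 and 4737.

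Summed over the 4 class II chain genes, Pax8-BPR GEMM tumours had the highest group mean again, at 539, 583, 729 and 1217 CPM, while other groups changed places. The Pax8-BPR allografts stood at 154 and 83.5 CPM, the latter inside the oviduct range, although their class I sums were above all normal libraries. Ad-BPR tumours ran from 107.5 to 813 CPM, and Ovgp1-BPR GEMM replicates stood at 652, 76.3 and 32. OSE-BPR GEMM tumours gave 142.8, 12.9 and 39.8 CPM and OSE-BPR allografts 4.64 to 88.4, against 50.8, 50.2 and 30 in ovary and 67.4, 125 and 101 in oviduct. In whole tissue, more cells of a kind and more RNA per cell cannot be told apart.

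**Figure D2:**
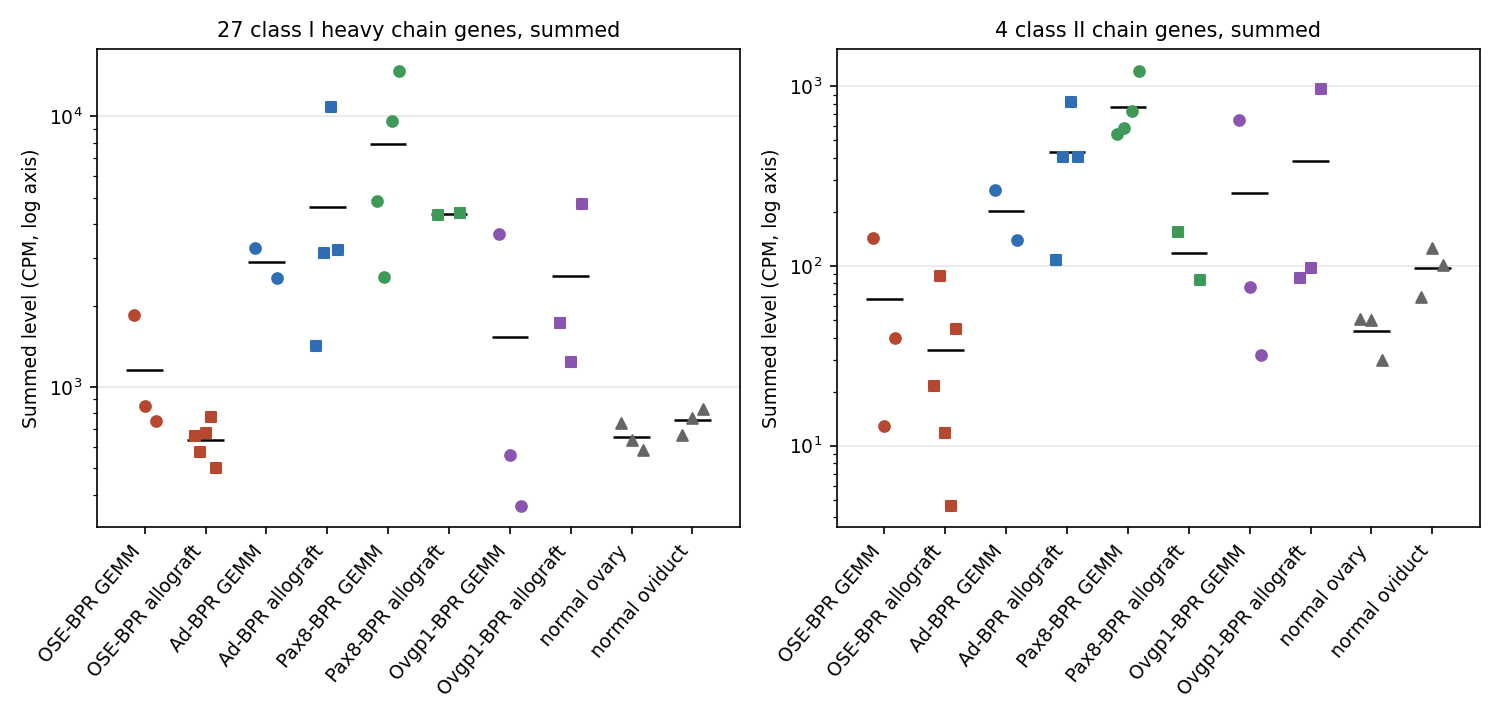
Summed CPM of the 27 class I heavy chain genes and of the 4 class II chain genes per library (points, log axes), with the group mean as a black line. Ad-BPR and Pax8-BPR tumours lie above all 6 normal libraries for class I, while Ovgp1-BPR GEMM replicates 2 and 3 lie below them.

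Single genes show how far the groups stood apart. As means ± standard deviation (SD), H2-K1 was 2803 ± 1872 CPM in Pax8-BPR GEMM (n = 4), 1662 ± 67.8 in Pax8-BPR allografts (n = 2), 1562 ± 1316 in Ad-BPR allografts (n = 4) and 1027 ± 65.1 in Ad-BPR GEMM tumours (n = 2). It was 804 ± 761 in Ovgp1-BPR allografts, 497 ± 685 in Ovgp1-BPR GEMM and 256 ± 163 in OSE-BPR GEMM tumours (n = 3 each), 167 ± 18.3 in ovary, 152 ± 19.9 in OSE-BPR allografts (n = 5) and 129 ± 14.7 in oviduct. All 12 Ad-BPR and Pax8-BPR tumours (518 to 4993 CPM) lay above all 8 OSE-BPR tumours (129 to 442) and all 6 normal libraries (118 to 179). Neighbouring means in this order differed by less than the larger SD of the pair, except for OSE-BPR allografts and oviduct. Psmb8 divided the libraries the same way, with 76.4 to 444 CPM in Ad-BPR and Pax8-BPR tumours, 6.67 to 52.5 in OSE-BPR tumours and 22.7 to 28.8 in normal tissue. Tapbp instead split tumour from normal: all 26 tumours lay at 247 to 916 CPM and all 6 normal libraries at 127 to 188.

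Among the other heavy chains, H2-Q4 had group means from 42.2 ± 3.67 CPM in ovary to 560 ± 430 in Pax8-BPR GEMM tumours, and its OSE-BPR tumours (49.9 to 168 CPM) overlapped the normal libraries (39.8 to 52.9) only through allograft replicate 5. H2-Q5 reached 181 CPM in a Pax8-BPR GEMM tumour and at most 1.5 in normal tissue, and H2-Q10, a secreted form, 39.4 against at most 1.62. H2-K2 lay at 4.52 to 22.1 CPM in Pax8-BPR GEMM tumours and at no more than 1.35 in OSE-BPR tumours and normal tissue. H2-M3 covered 0.906 to 51.4 CPM in oviduct-origin tumours, a range that holds the 6.91 to 13.7 of normal tissue. H2-T23 was 12.3 to 308 CPM in oviduct-origin tumours and 2.01 to 11.3 in OSE-BPR tumours, without overlap. In the class I loading group, Tapbpl, the peptide editor TAPBPR, stayed within 10 to 89.2 CPM and Erap1 within 24.2 to 106 in all libraries, narrow ranges beside those of the heavy chains.

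For class II, Cd74 had the highest level per length of the class II genes in every group. Its means were 1022 ± 738 CPM in Pax8-BPR GEMM tumours, 660 ± 319 in Ad-BPR allografts, 531 ± 748 in Ovgp1-BPR allografts, 448 ± 74 in Ad-BPR GEMM, 380 ± 536 in Ovgp1-BPR GEMM, 260 ± 18 in Pax8-BPR allografts, 242 ± 196 and 156 ± 173 in OSE-BPR GEMM tumours and allografts, with 242 ± 73.6 in oviduct and 125 ± 31.8 in ovary. When these means are ranked by size, neighbours all differed by less than the larger SD of the pair. Oviduct and ovary, printed last, are not neighbours in that ranking. H2-DMa, a chain of the peptide exchanger, ran from 3 CPM in Ovgp1-BPR GEMM replicate 3 to 46.6 in Pax8-BPR GEMM replicate 4. The H2-DO chains H2-Oa and H2-Ob, which hold H2-DM in check in B cells, were at most 4.19 and 8.11 CPM, both in Pax8-BPR GEMM tumours, the group with the highest B cell marker sum (19.8 to 69.8 CPM against 0.366 to 27.5 in the other groups).

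The normal tissues were set side by side to show what the set looks like before any tumour. Oviduct carried more of the class II machinery and less of the peptide transporter than ovary. H2-Ab1 stood at 37.2, 62.3 and 54.3 CPM in the oviduct replicates and at 26.2, 24.6 and 12.9 in ovary, without overlap (log2 fold change 1.36 ± 0.29, standard error as throughout, edgeR adjusted p = 0.0073). H2-Aa differed by 1.15 ± 0.28 (adjusted p = 0.011) and Cd74 by 1.03 ± 0.27 (adjusted p = 0.015). All 6 class II accessory genes were called higher in oviduct, H2-DMa and H2-Oa not under every alternative. Among the 6 were H2-DMb2 (1.49 ± 0.20, adjusted p = 0.0009) and H2-DMb1 (1.26 ± 0.23, adjusted p = 0.0035). H2-Ob, the beta chain of the H2-DO inhibitor, differed by 2.16 ± 0.45 at no more than 2.91 CPM. Tap2 was lower, at 54.4, 56.9 and 63.5 CPM against 89, 100 and 99.1 (-0.64 ± 0.09, adjusted p = 0.00097), and Tap1 too (-0.55 ± 0.10, adjusted p = 0.0042). Erap1 was lower by a log2 fold change of -0.41 ± 0.10 and H2-M3, which presents formylated peptides, by -0.62 ± 0.15, while Tapbp (0.44 ± 0.10) and H2-D1 (0.57 ± 0.14) were higher. H2-K1 at 124 to 146 CPM against 146 to 179 did not pass (-0.29 ± 0.12, adjusted p = 0.085). Neither did B2m (0.37 ± 0.14, adjusted p = 0.063), Nlrc5 (-0.36 ± 0.17, adjusted p = 0.11) or Ciita (1.01 ± 0.39, adjusted p = 0.065).

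In all, 13 members were higher and 6 lower of 41 tested between oviduct and ovary, where 53% of all 17334 genes were called (28.5% higher and 24.5% lower), so the share of members called was near that of all genes. The median log2 fold change was 0.228 over the members and 0.0169 over all genes. H2-D1 lost its call without ovary replicate 2 (adjusted p = 0.057) or 3 (adjusted p = 0.052) and with limma on TPM (adjusted p = 0.057). Tapbp lost its call without ovary replicate 2 (adjusted p = 0.051) and with limma on TPM (adjusted p = 0.22). H2-DMa did so with limma on TPM (adjusted p = 0.095) and without ovary replicate 2 or 3 or oviduct replicate 2 (adjusted p from 0.069 to 0.086). H2-Oa did so with DESeq2 (adjusted p = 0.057) and without ovary replicate 2 (adjusted p = 0.052). Leukocyte markers moved with the class II genes: 3 of 5 were higher in oviduct, where their sum was 80.1 to 101 CPM against 49.8 to 79.9 in ovary, and their part in the result was not tested. Of 14 other genes of the class I route, 2 were higher and 4 lower, and of 20 of the class II route 2 were higher and 3 lower.

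OSE-BPR GEMM tumours were compared with normal ovary, the organ around their cell of origin, with different strain labels. The chaperone that bridges Tap and class I, Tapbp, was higher and the endoplasmic reticulum chaperones were lower. Neither of the 2 classical heavy chains and none of the 4 class II chains passed, and of 16 other heavy chains 1 was higher and 1 lower. Tapbp stood at 364, 344 and 280 CPM against 135, 127 and 138 in ovary (log2 fold change 1.31 ± 0.30, edgeR adjusted p = 0.0031). Calr stood at 939, 658 and 581 CPM against 1032, 1250 and 1296 (-0.72 ± 0.22, adjusted p = 0.018), and Pdia3 at 627, 486 and 439 against 752, 906 and 975 (-0.76 ± 0.22, adjusted p = 0.013). Neither pair overlapped, although both calls were lost when OSE-BPR GEMM replicate 2 or 3 or ovary replicate 2 or 3 was left out (adjusted p from 0.079 to 0.1 for Calr and from 0.058 to 0.073 for Pdia3). The Calr call was also lost with only the groups compared in the fit (-0.68, adjusted p = 0.068). That of Pdia3 was also lost with limma on TPM (-0.48, adjusted p = 0.13). H2-Q2, a non-classical heavy chain, was at 1.01, 8.07 and 26 CPM against 0, 0.114 and 0.0548 in ovary and was called higher (adjusted p = 0.0015). All 3 ovary values lie below the floor of 3 counts, so no fold is given, and 16.1% of its 50-base stretches are shared with other genes, chiefly H2-Q1. H2-Ke6, which lies in the MHC but encodes a steroid dehydrogenase, was lower (-1.08 ± 0.23, adjusted p = 0.0016), and 70.5% of its 50-base stretches also occur in Gm20427. H2-K1 was at 442, 191 and 134 CPM against 179, 176 and 146, overlapping (0.62 ± 0.79, adjusted p = 0.61), and B2m at 699, 250 and 150 against 231, 180 and 178 (0.90 ± 0.59, adjusted p = 0.28).

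The count was 2 members higher and 4 lower of 45 tested, where 23.2% of 20887 genes were called (11.6% in each direction). The sixth call, H2-M9, was without counts in these tumours and at 0.624, 0.4 and 0.0548 CPM in ovary. Ovary replicate 3 lies below the floor of 3 counts, so no fold is given. Of the leukocyte markers 0 of 5 and of the macrophage markers 1 of 10 (lower) were called. Lower were also 2 of 6 B cell markers (median log2 fold change -1.76), 2 of 9 T and NK cell markers (median -2.5) and 2 of 8 dendritic cell markers, of which 1 more was higher, and their part in the result was not tested. Replicate 1 was the highest of the 3 OSE-BPR GEMM tumours in H2-K1, H2-D1, B2m, Cd74 and H2-Ab1. When only the groups compared entered the fit, 17 members were called, and the share of all genes called there is not given here.

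Oviduct-origin GEMM tumours were compared with normal oviduct, first as the mean of the 3 models. Class I heavy chains, their light chain, their transactivator and part of the peptide supply were higher, as was H2-Eb1 of class II, and Calr and Pdia3 were lower. H2-K1 lay at 1073 and 981 CPM in Ad-BPR, at 1896, 733, 3588 and 4993 in Pax8-BPR and at 1288, 122 and 82.1 in Ovgp1-BPR GEMM tumours, against 124, 118 and 146 in oviduct. All tumours except Ovgp1-BPR replicates 2 and 3 were above the oviduct libraries (log2 fold change 3.12 ± 0.79, edgeR adjusted p = 0.0033). B2m lay at 989 and 826 CPM, at 1433, 847, 2215 and 2790 and at 1088, 317 and 210 in the same order, against 209, 235 and 276 (2.00 ± 0.54, adjusted p = 0.0058). Nlrc5 lay at 53.7 and 42.3 CPM, at 33.9, 86.5, 173 and 248 and at 51.3, 8.95 and 9.63, against 5.76, 4.94 and 6.21 (3.24 ± 0.81, adjusted p = 0.0031). Its groups did not overlap, and all 18 oviduct-origin tumours were above all 6 normal libraries in Nlrc5. Tapbp was 284 to 916 CPM in these tumours and 147 to 188 in oviduct (1.46 ± 0.27, adjusted p = 0.00016).

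The non-classical heavy chains H2-Q6 and H2-Q7 gave some of the widest ranges. H2-Q7 ran from 5.44 CPM in Ovgp1-BPR GEMM replicate 3 to 2017 CPM in Pax8-BPR GEMM replicate 4, against 7.21, 10 and 8.08 in oviduct (4.99 ± 1.35, adjusted p = 0.0055). H2-Q6 differed by 4.84 ± 1.32 (adjusted p = 0.006). These values are less certain than those of H2-K1, since 32% of the 50-base stretches of H2-Q6 and 26.4% of those of H2-Q7 occur in other genes and RSEM divides such reads in proportion. H2-T22 (4.54 ± 0.58, adjusted p = 1.6e-06) and H2-Eb1 (6.08 ± 1.23, adjusted p = 0.00046) were called as well, and both belong to the ratios that cross the strain divide. H2-T10, the near copy of H2-T22, was not (-0.40, adjusted p = 0.61). H2-Aa (1.35 ± 0.88, adjusted p = 0.24), H2-Ab1 (1.24 ± 0.92, adjusted p = 0.31), Cd74 (1.21 ± 0.91, adjusted p = 0.32) and Ciita (0.66 ± 0.81, adjusted p = 0.56) did not pass. Calr was lower, at -0.62 ± 0.17 (adjusted p = 0.0067), and so was Pdia3 (-0.68 ± 0.17, adjusted p = 0.0032).

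Of 45 members tested, 17 were higher and 6 lower, where 35.7% of all genes were called (14.8% higher and 20.9% lower), and the median log2 fold change was 1.14 over the members and -0.0435 over all genes. By role, 1 of 2 classical and 8 of 16 other heavy chains were higher, while of the 11 genes of peptide supply and loading 4 were higher and 2 lower. Of the class II chains 1 of 4 was higher. Macrophage markers moved with these genes, with 6 of 10 higher and 0 lower. Only 1 of 5 leukocyte and 1 of 6 B cell markers were higher, near the 14.8% of all genes. Of 8 dendritic cell markers 1 was higher and 3 lower. Of 9 T and NK cell markers 0 were called, and the part of these cells in the result was not tested. Leaving out oviduct replicates 1 and 3 leaves 1 oviduct library, taken to vary like the other groups. In that fit H2-K1 (3.24), B2m (2.01), Nlrc5 (3.41) and H2-Eb1 (5.88) lost their calls, with fold changes within 0.3 of those above. The call of Psmb8 (1.87 ± 0.66, adjusted p = 0.029) also fell away without Ovgp1-BPR GEMM replicate 1 (adjusted p = 0.062) or any oviduct replicate (adjusted p from 0.078 to 0.095), and those of Calr (adjusted p = 0.084) and Pdia3 (adjusted p = 0.055) without oviduct replicate 3.

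Each model was then set against oviduct on its own. Pax8-BPR GEMM tumours (n = 4) had 25 members called of 45, against 14 in Ad-BPR (n = 2) and 15 in Ovgp1-BPR (n = 3). Of all genes, 32.2%, 24.1% and 32.6% were called in the same order, so the Ovgp1-BPR count was near that share. The models differ in their number of tumours, and these counts do not rank them. In Pax8-BPR the fold changes were large. H2-K1 was higher by 4.44 ± 0.89 (edgeR adjusted p = 0.00052), H2-D1 by 2.30 ± 0.61 (adjusted p = 0.0058), B2m by 2.92 ± 0.61 (adjusted p = 0.00078) and Nlrc5 by 4.58 ± 0.91 (adjusted p = 0.0005). Tap1 stood at 95, 74.7, 247 and 420 CPM against 19.7, 20.2 and 24 in oviduct (3.30 ± 0.72, adjusted p = 0.0012). Psmb8, a catalytic subunit of the immunoproteasome, stood at 137, 80.7, 236 and 444 CPM against 24.6, 22.7 and 27.5 (3.17 ± 0.75, adjusted p = 0.0025). Every Pax8-BPR GEMM tumour was above every oviduct library in both genes. Tap2 (1.57 ± 0.51), Psmb9 (2.55 ± 0.88) and H2-Aa (2.63 ± 1.01, adjusted p = 0.047) were also called. Without replicate 4, the highest of all 32 libraries for 24 of the 34 members with at least 10 CPM, their fold changes were 0.80 (adjusted p = 0.18), 1.66 (adjusted p = 0.14) and 2.32 (adjusted p = 0.099), and leaving out an oviduct replicate also ended these calls. Psmb10 (0.92 ± 0.38, adjusted p = 0.064), H2-Ab1 (2.32 ± 1.05, adjusted p = 0.09) and Cd74 (2.08 ± 1.03, adjusted p = 0.12) did not pass. H2-DMb1 was higher by 3.21 ± 0.93 (adjusted p = 0.01).

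In Pax8-BPR, 23 members were higher and 2 lower of 45, where 32.2% of all genes were called (15.9% higher and 16.3% lower). The members' median log2 fold change was 2.04, against -0.00905 over all genes. Both classical heavy chains, 8 of 16 other heavy chains, 7 of 11 peptide supply genes and 3 of 4 class II chains were higher. Without oviduct replicates 1 and 3, a fit with 1 oviduct library, H2-K1 (4.58) and Nlrc5 (4.78) lost their calls. Cell markers moved too: 5 of 5 leukocyte, 7 of 10 macrophage, 6 of 6 B cell, 3 of 8 dendritic cell and 2 of 9 T and NK cell genes were higher. Ptprc, the pan-leukocyte phosphatase CD45, differed by 2.39 ± 0.60 (adjusted p = 0.0037) and Itgax, a dendritic cell integrin, by 4.12 ± 0.97 (adjusted p = 0.0023). The leukocyte sum was 376 to 437 CPM in Pax8-BPR GEMM tumours against 80.1 to 101 in oviduct, and its part in the changes of the class I and class II genes was not tested.

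Genes of the interferon-gamma axis that are no members gave 7 higher and 0 lower of 18 tested in Pax8-BPR. Cxcl10 (7.74 ± 1.16, adjusted p = 2.3e-05) and Cxcl9 (5.41), chemokines that interferon-gamma induces, had large differences, and Cd274, the ligand PD-L1, was higher by 3.04 ± 0.55 (adjusted p = 0.00019). The transcription factor Irf1 was higher by 1.43 ± 0.41 (adjusted p = 0.01). Ifng itself was at most 0.914 CPM in any library and was not tested. Of 14 other class I route genes 5 were higher and 1 lower, among them Psme1 and Psme2, the proteasome activator subunits, both by 0.80. Of 20 other class II route genes 10 were higher and 0 lower, such as Ctss, the protease that cuts the invariant chain (4.06 ± 0.75, adjusted p = 0.00024), and the costimulatory Cd40 (3.80) and Cd86 (2.94).

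Ad-BPR GEMM tumours (n = 2) had 11 members higher and 3 lower of 45, where 24.1% of genes were called (11.7% higher and 12.3% lower). H2-K1 (2.99 ± 0.89, edgeR adjusted p = 0.017), B2m (1.92 ± 0.65, adjusted p = 0.032), Nlrc5 (3.09 ± 0.91, adjusted p = 0.017) and Tapbp (1.29 ± 0.33, adjusted p = 0.0065) were higher. H2-D1 at 1269 and 1052 CPM against 441, 539 and 554 did not overlap but did not pass (adjusted p = 0.2), and neither did Tap1 (1.65 ± 0.75, adjusted p = 0.11). The count was 24 with only the groups compared in the fit and between 4 and 8 when single libraries were left out. The share of all genes called in these settings is not given here. Without oviduct replicates 1 and 3, a fit with 1 oviduct library, H2-K1 (3.10), B2m (1.92), Nlrc5 (3.255) and Tapbp (1.22) lost their calls. The B2m call was lost without any 1 of the 5 libraries (adjusted p from 0.064 to 0.12) and the H2-K1 call without any except oviduct replicate 3 (adjusted p from 0.052 to 0.073) and with limma on TPM (adjusted p = 0.08). The Nlrc5 call was lost without either Ad-BPR tumour or oviduct replicate 2 (adjusted p from 0.054 to 0.063).

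Ovgp1-BPR GEMM tumours had 9 members higher and 6 lower of 45, where 32.6% of genes were called (15.3% higher and 17.3% lower). The higher members included Tapbp (1.45 ± 0.30, edgeR adjusted p = 0.00091), and H2-T22 (4.11 ± 0.60) and H2-Eb1 (5.77 ± 1.26), which cross the strain divide. Calr stood at 537, 491 and 700 CPM against 1133, 1199 and 1553 in oviduct (-1.17 ± 0.22, adjusted p = 0.00029). Pdia3 stood at 436, 439 and 450 CPM against 837, 842 and 1150 (-1.09 ± 0.22, adjusted p = 0.00058). Neither chaperone overlapped with oviduct, and all 6 Ovgp1-BPR tumours lay below all 6 normal libraries in both. H2-DMb2, which also belongs to the ratios that cross the strain divide, was lower too (-3.21 ± 0.86, adjusted p = 0.0063). H2-K1 (1.95 ± 0.81, adjusted p = 0.068), B2m (1.17 ± 0.59, adjusted p = 0.13), Nlrc5 (2.05 ± 0.84, adjusted p = 0.062) and H2-D1 (-0.06, adjusted p = 0.96) did not pass. Without oviduct replicates 1 and 3, a fit with 1 oviduct library, Tapbp (1.36) and H2-Eb1 (5.56) lost their calls. The 3 model comparisons use the same oviduct libraries and are no independent evidence for each other.

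**Figure D3:**
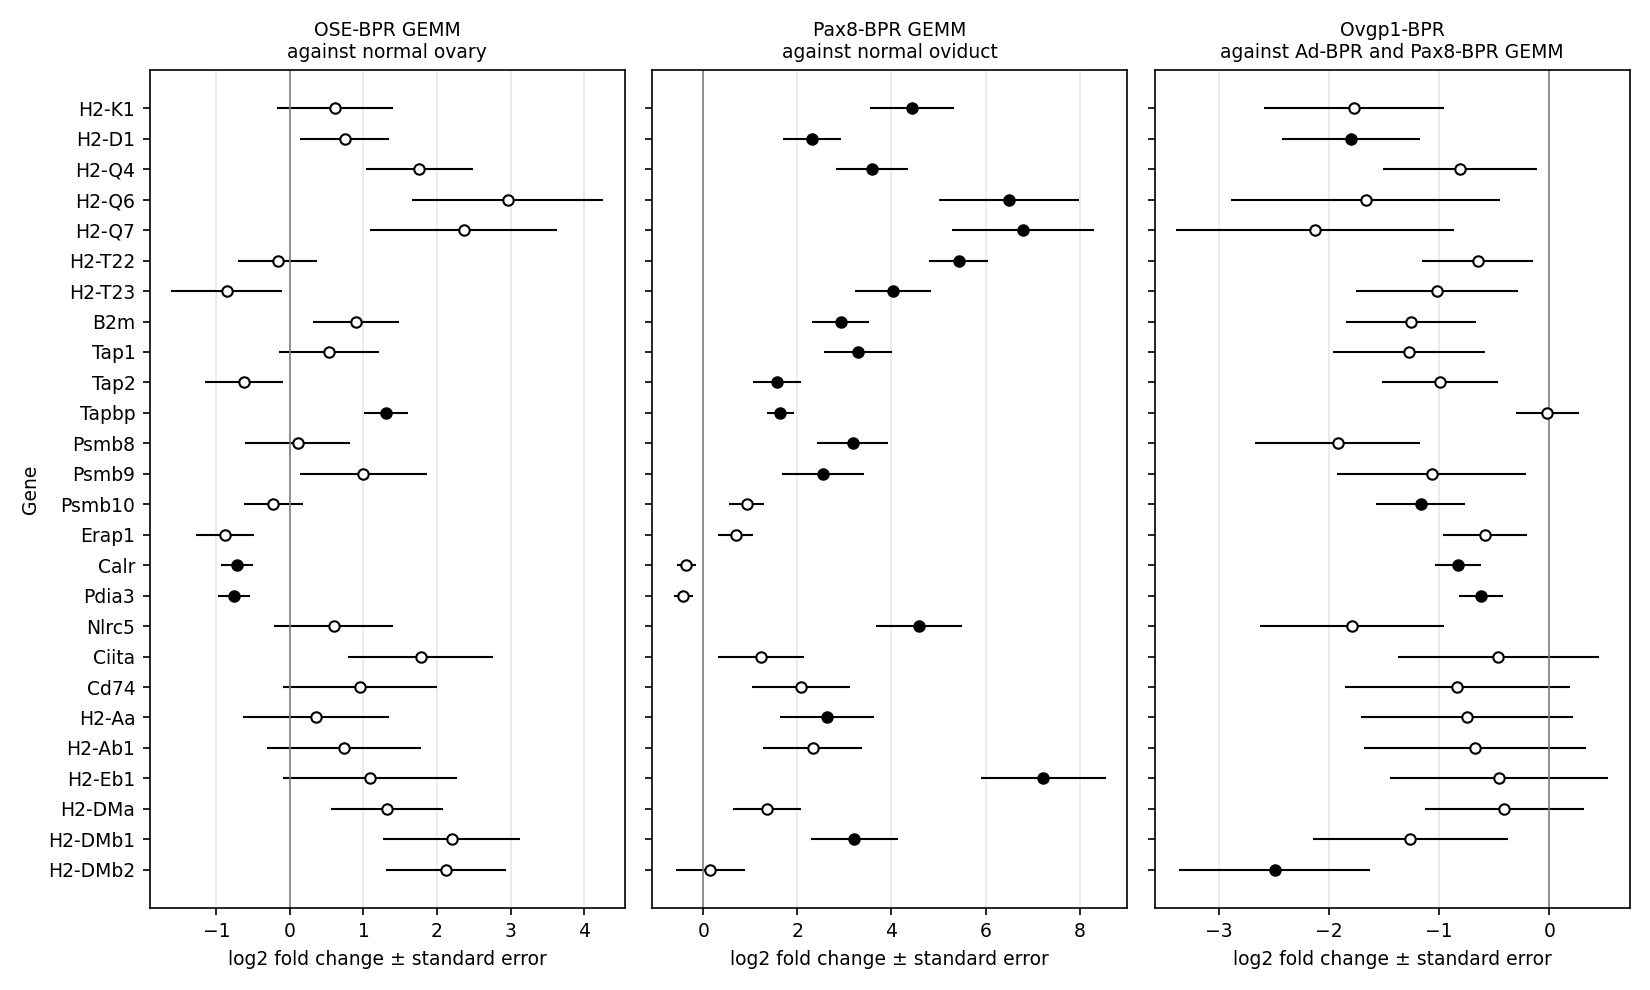
Log2 fold changes with standard errors of 26 members for OSE-BPR GEMM against ovary, Pax8-BPR GEMM against oviduct, and Ovgp1-BPR against Ad-BPR and Pax8-BPR GEMM tumours, with filled points for adjusted p under 0.05. Tapbp lies to the right of 0 and filled in the first 2 panels, and Calr and Pdia3 lie to the left of 0 in the first and the last panel.

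The site of origin was addressed by setting OSE-BPR against oviduct-origin tumours of the same kind, with different strain labels. Among GEMM tumours few members passed. H2-Eb1 was at 4.36, 0.22 and 1.4 CPM in OSE-BPR and at 9.29 to 359 in all oviduct-origin tumours (log2 fold change -5.70 ± 1.32, edgeR adjusted p = 0.0037). H2-T22 (-4.03 ± 0.60, adjusted p = 9e-05) and H2-T23, the mouse Qa-1 chain recognised by NK cell receptors (-3.50 ± 0.82, adjusted p = 0.0043), were lower and H2-DMb2 was higher (2.28 ± 0.66, adjusted p = 0.015), the latter not without OSE-BPR GEMM replicate 1 (1.66, adjusted p = 0.11) or Ad-BPR GEMM replicate 1 (adjusted p = 0.057). H2-Eb1, H2-T22 and H2-DMb2 belong to the ratios that cross the strain divide. H2-K1 (-2.14 ± 0.81, adjusted p = 0.055), Nlrc5 (-2.20 ± 0.83, adjusted p = 0.054) and B2m (-1.39 ± 0.57, adjusted p = 0.075) did not pass, and 0 of 11 peptide supply genes did. Leukocyte markers were lower here too (5 of 5), with sums of 12.9 to 74.3 CPM against 37.4 to 437, and 8 of 10 macrophage markers were lower and 1 higher. The dendritic cell marker sum was not lower, at 99.9 to 144 CPM against 35.8 to 121. The part of these cells was not tested. The members' count was 3 higher and 7 lower of 45, where 26% of 20000 genes were called (14.9% higher and 11.1% lower). DESeq2 called 17 members, and its share of all genes called is not given here.

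Among allografts both classical heavy chains, B2m, Nlrc5 and 7 of 11 genes of peptide supply and loading were lower in OSE-BPR. Of 14 other genes of the class I route 0 were higher and 2 lower (median log2 fold change -0.218). H2-K1 lay at 148, 151, 149, 184 and 129 CPM in OSE-BPR allografts. The oviduct-origin allografts ran from 277 to 3487 CPM, all above them (-3.07 ± 0.69, edgeR adjusted p = 0.0016). B2m lay at 123, 181, 170, 212 and 273 CPM against 493 to 2411 (-2.58 ± 0.49, adjusted p = 0.00045). Nlrc5 lay at 4.7, 2.1, 7.55, 8.63 and 4.34 CPM against 15.9 to 298 (-3.59 ± 0.72, adjusted p = 0.00069). None of these 3 overlapped. Psmb8 lay at 14, 17.1, 6.67, 14.7 and 9.25 CPM against 23.2 to 326 (-2.99 ± 0.62, adjusted p = 0.00093), again without overlap.

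H2-D1 (-1.95 ± 0.50, adjusted p = 0.0043), Tap1 (-2.07 ± 0.56, adjusted p = 0.0067), Tap2 (-1.46 ± 0.42), Psmb10 (-1.14 ± 0.31), Erap1 (-0.80 ± 0.30) and Calr (-0.58 ± 0.16) were lower in OSE-BPR allografts as well, though Erap1 lost its call without any of 6 libraries (adjusted p up to 0.11). Tapbp, high in every tumour group, was not called (-0.23, adjusted p = 0.45). H2-Aa (-2.79 ± 0.84, adjusted p = 0.013) and H2-Ab1 (-2.33 ± 0.86, adjusted p = 0.038, up to 0.1 without single libraries such as Ovgp1-BPR allograft replicate 3) were lower, while Cd74 (-1.53 ± 0.82, adjusted p = 0.15), H2-DMa (-0.26, adjusted p = 0.75) and Ciita (-0.18, adjusted p = 0.87) did not pass. Ciita at 4.77 to 18.3 CPM in OSE-BPR allografts overlapped with 3.29 to 52.2 in the others. H2-DMb2 was higher (2.11 ± 0.59, adjusted p = 0.0084), against the direction of the other class II genes called. It belongs to the ratios that cross the strain divide, and 24.8% of its 50-base stretches are shared with other genes.

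In all, 2 members were higher and 21 lower of 45 in the allografts, where 37.8% of all genes were called (20.4% higher and 17.4% lower). The median log2 fold change was -1.46 over the members and 0.0407 over all genes. Of the other heavy chains 7 of 16 and of the class II chains 3 of 4 were lower. The count stayed between 20 and 28 when single libraries were left out. Leukocyte markers (5 of 5 lower), macrophage markers (8 lower and 1 higher of 10), B cell markers (3 of 6 lower) and T and NK cell markers (6 of 9 lower) moved in the same direction, with Ptprc at -2.19 (adjusted p = 0.0015). Itgax, of the dendritic cell markers, was lower too (-4.57), but the sum of the 8 dendritic cell markers was not. That sum was 85.9 to 119 CPM in OSE-BPR allografts. It was 40.8 to 86.3 CPM in Ad-BPR, 19.5 to 59.1 in Pax8-BPR and 56.6 to 119 in Ovgp1-BPR allografts. The leukocyte sum was 23.4 to 60.8 CPM in OSE-BPR and 74.3 to 366 in oviduct-origin allografts, without overlap, and Cd3d, Cd8b1 and Ncr1 were at 0 in all 5 OSE-BPR allografts. Their part in the result was not tested. In the interferon-gamma axis 7 of 18 were lower, among them Cxcl10 (-2.49), Cd274 (-1.54 ± 0.41), Irf8 (-1.80) and the receptor subunit Ifngr1 (-1.51). Of 20 other class II route genes 8 were lower and 1 higher, with Ctss at -2.44.

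The comparison of Ovgp1-BPR with Ad-BPR and Pax8-BPR tumours keeps the organ and the strain label the same, while the Trp53 allele by label and the Cre differ. Among GEMM tumours 0 members were higher and 5 lower of 45, where 22.7% of genes were called (12.5% higher and 10.2% lower). Calr was at 537, 491 and 700 CPM against 775 to 1352 (log2 fold change -0.83 ± 0.21, edgeR adjusted p = 0.0078), and Pdia3 at 436, 439 and 450 CPM against 546 to 843 (-0.62 ± 0.20, adjusted p = 0.034). Both chaperones were lower in all 3 Ovgp1-BPR GEMM tumours than in all 6 of the others. They were lower among allografts too, Calr at 644, 783 and 626 CPM (-0.72 ± 0.20, adjusted p = 0.016) and Pdia3 at 397, 513 and 425 (-0.64 ± 0.20, adjusted p = 0.028). The allograft groups overlapped for Pdia3 (459 to 800 CPM in the others) and not for Calr (883 to 1375). The remaining GEMM calls were H2-D1 (-1.80 ± 0.63, adjusted p = 0.044), Psmb10 (-1.17 ± 0.40, adjusted p = 0.041) and H2-DMb2 (-2.49 ± 0.87, adjusted p = 0.042). Each of these calls was lost without Ovgp1-BPR GEMM replicate 2 or 3 (adjusted p from 0.11 to 0.2). Each was also lost without the filter on low counts (adjusted p from 0.053 to 0.06). The GEMM call of Pdia3 was lost without the filter as well (adjusted p = 0.06) and with limma on TPM (adjusted p = 0.16). H2-K1 did not pass (-1.77 ± 0.82, adjusted p = 0.12). The GEMM call of Calr was lost only without Ovgp1-BPR replicate 2 (adjusted p = 0.053), while that of Pdia3 was lost without any of 6 libraries (adjusted p from 0.05 to 0.11). Among allografts the Calr call was lost with limma on TPM (adjusted p = 0.093) and without replicate 1 of Ovgp1-BPR (adjusted p = 0.076) or of Pax8-BPR (adjusted p = 0.053). The Pdia3 call there was lost with limma on TPM (adjusted p = 0.15), without the filter on low counts (adjusted p = 0.061) and without Ovgp1-BPR replicate 1 or 3 or Pax8-BPR replicate 2 (adjusted p from 0.061 to 0.13).

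These counts turn on single tumours, and those without single tumours are given without the share of all genes called. Without Ovgp1-BPR GEMM replicate 1, 22 members were called, and without replicate 2, 0. Without replicate 1 and allograft replicate 3 together, 25 were called in the GEMM and 7 in the allograft comparison. In the allografts 1 member was higher (H2-Bl, 3.67 ± 0.99, adjusted p = 0.011, at no more than 2.72 CPM as a group mean) and 2 were lower, where 22.3% of genes were called (13.7% higher and 8.6% lower). Of 14 other class I route genes 4 were lower among GEMM tumours, among them Psme3 (-1.11), Psmb6 (-0.92) and the peptidase Npepps (-0.98), and Gbp5, an interferon-induced GTPase, was higher (1.90). Of the macrophage markers 4 of 10 and of the leukocyte markers 2 of 5 were lower, with leukocyte sums of 37.4 to 180 CPM in Ovgp1-BPR against 146 to 437, and their part in the member calls was not tested.

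**Figure D4:**
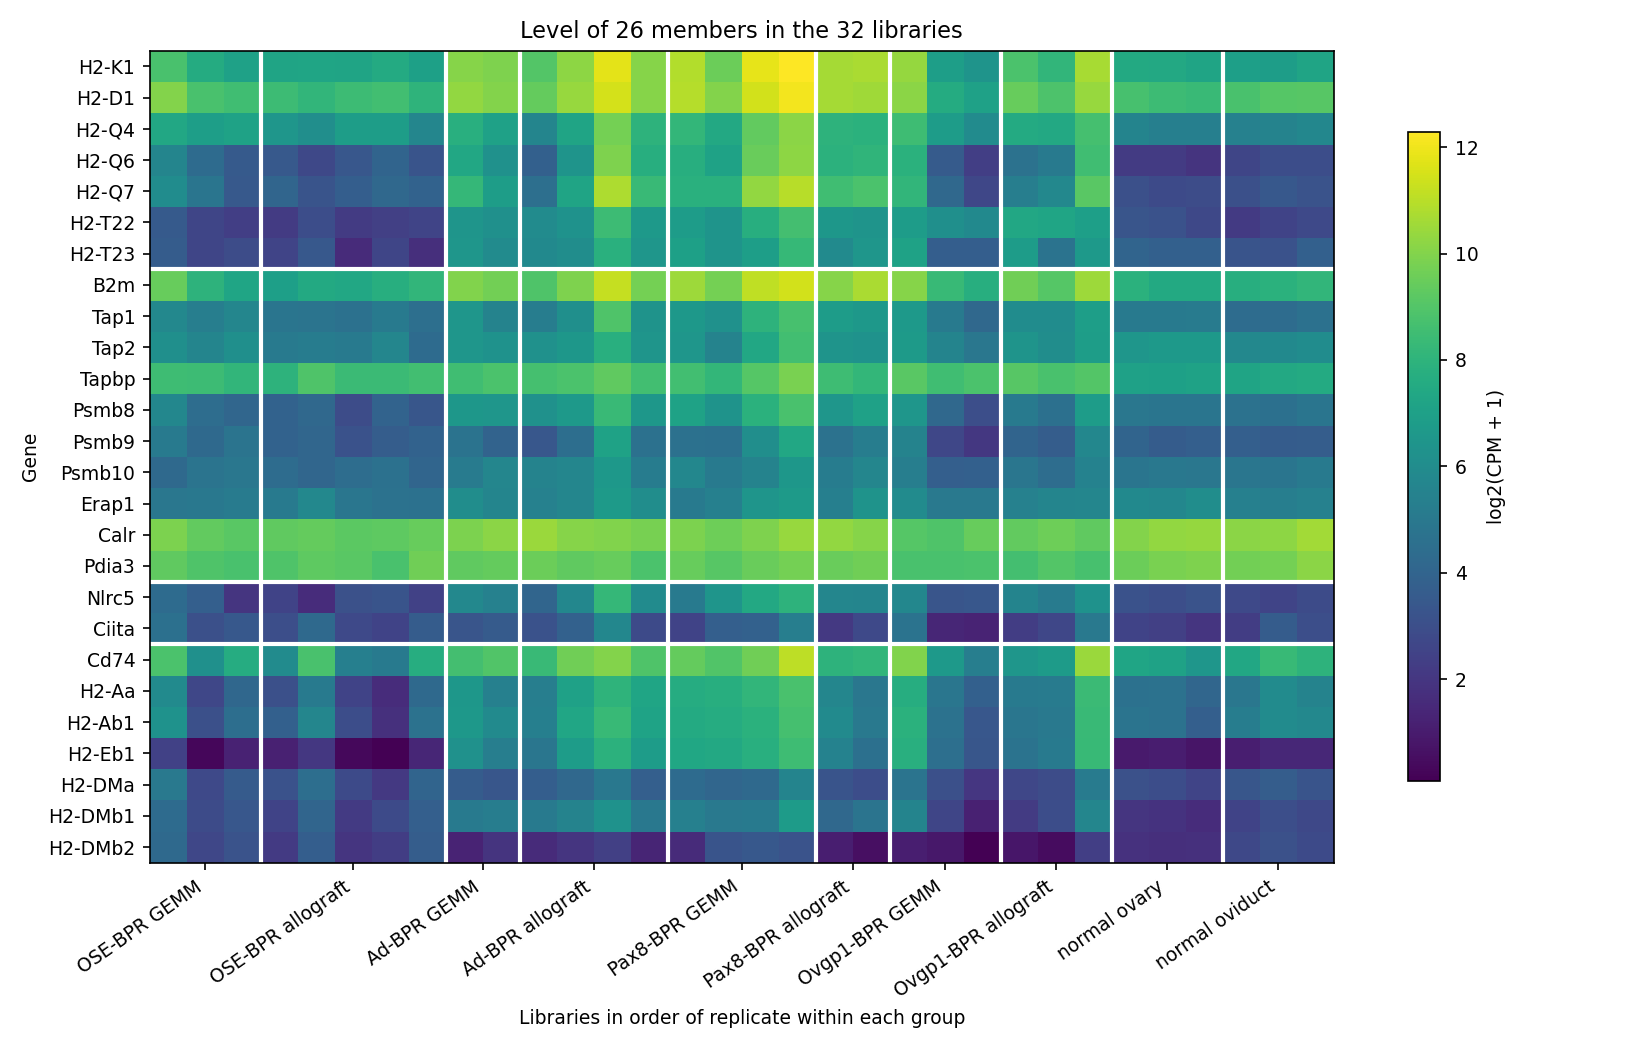
Level of 26 members in each of the 32 libraries as log2(CPM + 1), ordered by group, with class I genes above class II genes. Ovgp1-BPR GEMM replicate 1 and allograft replicate 3 are bright across most rows where the other Ovgp1-BPR tumours are dark, and H2-Eb1 is near 0 in OSE-BPR tumours and in normal tissue.

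The division within Ovgp1-BPR was wide. GEMM replicate 1 was the highest of its group in 21 of 23 key members, the exceptions being Calr and Pdia3, and allograft replicate 3 in 20 of 23. H2-K1 was 1288 CPM in GEMM replicate 1 against 122 and 82.1, and Cd74 998 against 103 and 37.9. In the allografts H2-K1 was 459, 277 and 1676 CPM and Cd74 89.9, 109 and 1395. These 2 tumours also held the highest Epcam, a marker of epithelium, in their groups, with 200, 45.7 and 3.63 CPM in GEMM replicates 1 to 3 and 2.8, 0.466 and 467 in the allografts. Macrophage marker sums ran the same way, at 581, 264 and 170 CPM in the GEMM tumours and 324, 283 and 916 in the allografts.

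Ad-BPR allograft replicate 3 stood apart in the class I route. Tap1 was 37.1, 70.5, 478 and 80.3 CPM in the 4 allografts, Psmb9 9.57, 21.3, 138 and 23.5, and Nlrc5 15.9, 52.5, 298 and 60.8. It was the highest of its group in 19 of 23 key members, and the summed interferon-gamma axis was 2782 CPM there against 873 to 1055 in the other 3. T and NK cell markers summed to 27.6 CPM against 3.44 to 7.4, while its macrophage sum of 819 CPM lay among the others (766, 1273 and 850). Pax8-BPR GEMM replicate 4 had the highest T and NK cell sum of its group (50.8 CPM) and an interferon-gamma axis sum of 2167 CPM against 1030 to 1296. In both libraries the class I genes, the interferon-gamma axis and lymphocyte markers were high at once, and which of these goes with which was not tested.

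Nlrc5 and the class I sum had the same 2 highest tumours, Pax8-BPR GEMM replicate 4 and Ad-BPR allograft replicate 3, while the lowest was an OSE-BPR allograft for Nlrc5 (2.1 CPM) and Ovgp1-BPR GEMM replicate 3 for the class I sum (364 CPM). Macrophage markers were highest in the group with the highest class II sums, but the 2 did not run in parallel library by library. Pax8-BPR GEMM tumours held 1562, 1014, 1301 and 1165 CPM of the 10 macrophage genes, Ad-BPR GEMM tumours 701 and 482, and Pax8-BPR allografts 569 and 325. Within Pax8-BPR GEMM, replicate 1 had the highest macrophage sum (1562 CPM) and the lowest class II sum (539 CPM). Ad-BPR allograft replicate 1 had 766 CPM of macrophage markers with a class II sum of 107.5 CPM, inside the oviduct range. OSE-BPR tumours held 94.1 to 317 CPM, near the 213 to 345 of ovary and 230 to 298 of oviduct. Ciita did not separate the groups, with 4.74, 12.7, 13.6 and 38.9 CPM in Pax8-BPR GEMM tumours and 23.4, 7.3 and 9.83 in OSE-BPR GEMM tumours. Depth is shared by the points on each axis, so the relation over libraries is a description only.

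**Figure D5:**
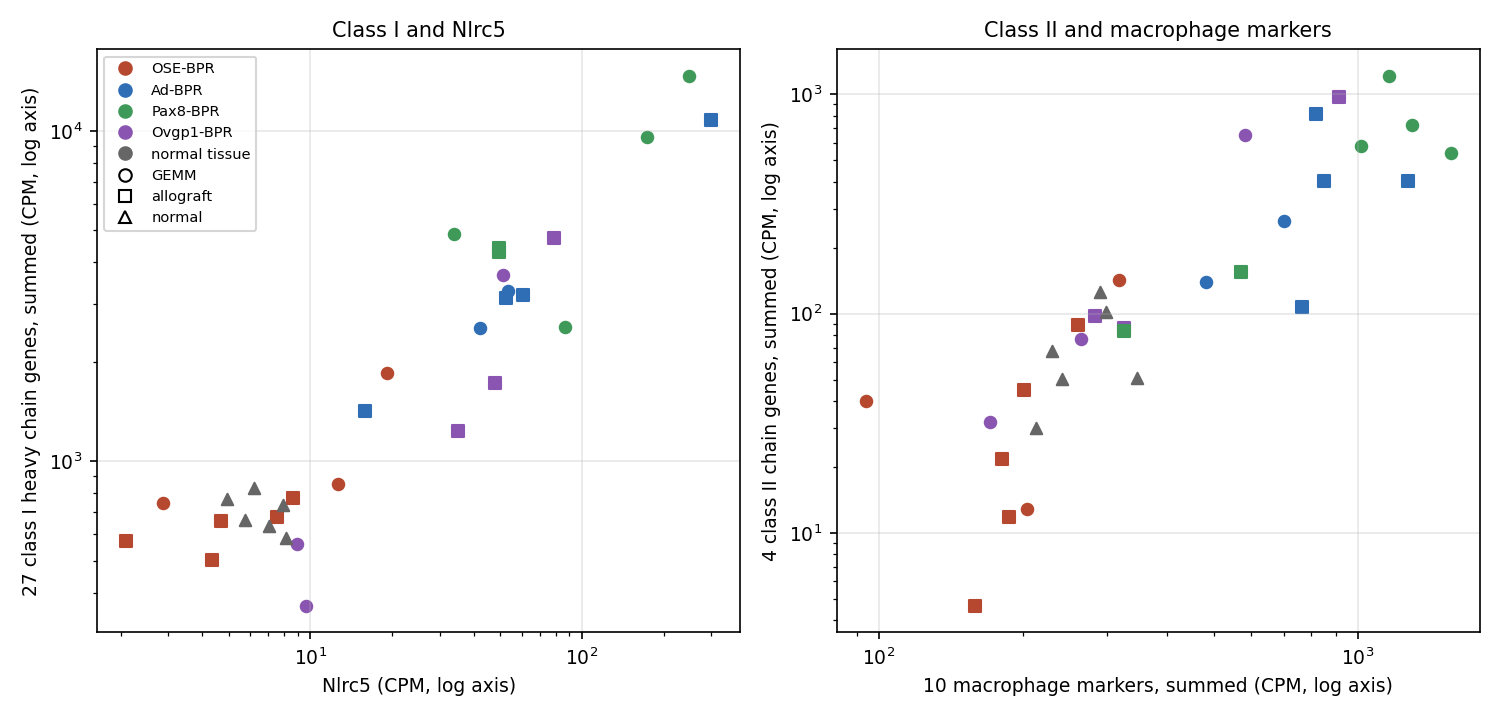
Class I sum against Nlrc5, and class II sum against the sum of 10 macrophage markers, for the 32 libraries (CPM, log axes), with colours for models, circles for GEMM tumours, squares for allografts and triangles for normal tissue. OSE-BPR tumours and normal tissue lie at the lower left and Pax8-BPR GEMM tumours at the upper right of both panels.

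Allografts were compared with GEMM tumours over the 4 models to see whether transfer went with a change. edgeR called 0 of 20000 genes and 0 of 45 members (percent called 0), with 1210 genes and 1 member at an unadjusted p under 0.05. DESeq2 called 34 genes and 0 members, and limma on TPM 0 genes. The members' median log2 fold change was -0.124, against -0.0169 over all genes. H2-K1, for example, was 1896, 733, 3588 and 4993 CPM in Pax8-BPR GEMM tumours and 1614 and 1710 in the allografts. In OSE-BPR it was 442, 191 and 134 CPM in GEMM tumours and 129 to 184 in allografts. A test of whether this difference varied between models called 0 genes as well (percent called 0), with 902 genes and 2 members at an unadjusted p under 0.05, 26 genes called by DESeq2 and 1 by limma. With 2 tumours in some groups these tests do not show that allografts and GEMM tumours are alike.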

How the data were processed

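Gene tables of 32 RNA libraries were used. RSEM expected counts per gene were deposited by the authors, and TPM values (counts per length, scaled to a fixed sum) were deposited by the authors from the same program. Tools named in the submitters' processing notes are bcl2fastq, Picard, cutadapt 1.18, STAR 2.7.0f and RSEM 1.3.1, with mm10 and GRCm38 as builds. The sources used here do not say whether counting used strand. Every column matched a sample (0 unmapped), and all 55450 gene IDs matched GENCODE M21.

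Expected counts (6.72% not whole) were rounded and tested by edgeR 4.0.16 in R 4.3.3 (quasi-likelihood F test, TMM, filterByExpr with minimum count 10 and total 15). Fits held the 6 normal libraries (17334 genes, 41 members), the 26 tumours (20000 genes, 45 members) or all 32 (20887 genes, 45 members). Adjusted p-values are Benjamini-Hochberg over all genes of a fit, called below 0.05. Models were weighted equally in the oviduct-origin mean. Levels are CPM with TMM over all 32 libraries, and genes are compared with each other on TPM. The fits were tested on simulated data.

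Members and lists were chosen with earlier results of these data known. Values are given for 23 key members and, per comparison, for the 5 called members with the largest fold change at 10 CPM or more in the higher arm, and from the lists of other pathway genes and cell markers for up to 4 such genes. A result that this rule would name is not reported here. Alternatives were DESeq2 1.42.0, limma 3.58.1 on log2(TPM + 1), other scaling, no filter, other sets of libraries, an animal block and leaving out libraries. Member counts under alternatives are given without the share of all genes called there, so they are not results about the members alone. Ovary and oviduct libraries share animal numbers in their titles, which pairs them, and over genes the deviations of an animal's ovary and oviduct had correlations of -0.108, -0.069 and 0.0755. Within groups, 39 pairs of libraries were checked for duplicates (lowest chi-square per degree of freedom 10.9). Standard errors come from the edgeR fit and include the spread between libraries, while floors cover counting error only.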

Additional observations from a re-analysis of the deposited data

Results flagged for a closer look

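In the 3 groups of 4 or 5 libraries, the highest or lowest library of 56 gene and group pairs was compared with the rest by Dixon's gap ratio, and 9 stood beyond its 95% critical value, where chance gives about 1 in 20. Ad-BPR allograft replicate 3 gave 6 of them, with CPM of 477.8 for Tap1 (next highest 80.28), 217.1 for Tap2 (92.62), 326.3 for Psmb8 (103.4), 138.3 for Psmb9 (23.52), 298.4 for Nlrc5 (60.75) and 52.25 for Ciita (13.6). Pax8-BPR GEMM replicate 4 stood apart in H2-DMa at 46.65 CPM (next highest 19.51) and H2-DMb1 at 109.2 (41.06). OSE-BPR allograft replicate 2 stood apart in Erap1 at 54.39 CPM (next highest 31.95). Genes of the same library are not independent of each other.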

How the results depend on the processing

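Of 253 gene results, 73 were called and 28 of these kept their call under every alternative, among them Tap1, Tap2, H2-Aa, H2-Ab1 and Cd74 between the normal tissues, Tapbp in OSE-BPR and Pax8-BPR against normal tissue, and H2-K1, H2-D1, B2m, Tap1, Psmb8 and Nlrc5 between OSE-BPR and oviduct-origin allografts. Of 4092 gene alternatives, 3823 left the call as it was, 168 lost a call, 101 gained one and 0 reversed a called result. Changes of direction in results that were not called were not counted. Counts of members called moved as follows, without the share of all genes called in each setting beside them. With DESeq2 they were 10 for OSE-BPR against ovary (6 above), 17 for OSE-BPR against oviduct-origin GEMM (10) and 10 for Ovgp1-BPR against Ad-BPR and Pax8-BPR GEMM (5), the last also 8 with limma on TPM, 1 without the filter and 9 with all 32 libraries. With only the groups compared in the fit they were 17 for OSE-BPR and 24 for Ad-BPR against normal tissue (14). Without oviduct replicates 1 and 3, an alternative added after seeing the data, counts against oviduct were 4 (oviduct-origin), 2 (Ad-BPR), 4 (Pax8-BPR) and 5 (Ovgp1-BPR). Without Ovgp1-BPR GEMM replicate 1 and allograft replicate 3, also added later, the Ovgp1-BPR counts were 25 and 7. The cause was not tested, beyond the fewer libraries of these fits. With single libraries left out, the counts ran from 14 to 22 (oviduct against ovary), 3 to 5 (OSE-BPR against ovary), 16 to 23 (oviduct-origin against oviduct), 4 to 8 (Ad-BPR), 20 to 27 (Pax8-BPR), 10 to 17 (Ovgp1-BPR), 6 to 13 and 20 to 28 (OSE-BPR against oviduct-origin GEMM and allografts), 0 to 22 and 1 to 4 (Ovgp1-BPR against the others) and stayed at 0 for allografts against GEMM and its model difference. An arm of 1 library was taken to vary like the other groups. With the animal as a replicate block, 18 members were called between oviduct and ovary (19 without), and the block changed no other call. The class I sum differed between oviduct and ovary by a log2 difference of 0.21 in CPM and of -0.047 in TPM. With limma on TPM the share of called genes that were higher fell from 53.8% to 42.4% for oviduct against ovary (members 10 higher and 11 lower, median of all genes -0.105) and rose from 55% to 66.4% for Ovgp1-BPR against the other GEMM tumours (1 higher and 7 lower, median 0.127). Members below 0.14 to 0.219 CPM could not be told from 0 at this depth.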

Other observations

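H2-Eb1 and H2-Ab1 share no 50-base stretch with another gene (0%), whereas 34.5% of the stretches of H2-T22 and 22.7% of those of H2-DMb1 occur elsewhere. RSEM divides such shared reads between genes, which bears on the ratios of the latter. The stretches were counted within the reference sequence, where H2-Eb1 and H2-Ab1 have none to divide. Whether reads of other alleles were assigned differently was not tested for any of these ratios, that of H2-Eb1 to H2-Ab1 included. The ratio of H2-D1 to H2-K1 did not divide the libraries, at 0.541 to 0.949 in the tumours labelled FVB, 0.638 to 1.38 in the normal libraries and 0.435 to 0.992 in the oviduct-origin tumours. Beside Trim12a, Gm42047 was at 0 to 0.268 CPM in the tumours labelled FVB, 8.87 to 379 in oviduct-origin tumours and 0 to 0.208 in the normal libraries, and Gm8210 at 7.87 to 105, 0 to 0.214 and 29.9 to 202.

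Tap1 and Psmb9 lie head to head on chromosome 17, and their windows of 250 bases overlap (34187306 to 34187555 for Tap1 on the plus strand, 34187331 to 34187580 for Psmb9 on the minus strand). Both genes were highest in Ad-BPR allograft replicate 3 and Pax8-BPR GEMM replicate 4, with Tap1 at 478 and 420 CPM and Psmb9 at 138 and 167.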
